A study of Mus musculus with 4 samples.

Results

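The interleukin 17 and interleukin 22 system of the colon is described here through 10 of the 22422 genes measured, taken by symbol: the cytokines Il17a, Il17f, Il17c, Il22 and Il23a and the receptor or binding-protein genes Il17ra, Il17rc, Il17re, Il22ra1 and Il22ra2. All 10 passed the filter on low values. RNA was sequenced from whole distal colon of female mice, 6 weeks old, given 2% dextran sulfate sodium (DSS), a polysaccharide that injures the colonic epithelium, for 5 days. The Elf4fl/fl-Villin-Cre mice carry loxP-flanked Elf4 alleles and a Cre recombinase made under the villin promoter, which is active in intestinal epithelium, and they were set against wild-type mice, with 2 libraries per genotype. All mice were C57BL/6 per the design text, but C57BL/8 is written as the strain of both Elf4fl/fl-Villin-Cre samples. Both genotypes received DSS, and colon without DSS was not analysed here. Nothing in the labels says whether the libraries of a genotype came from separate animals, so a p-value covers only how far these samples spread, and that spread may be technical.

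Interleukin 17A and 17F are made mainly by T helper 17 cells, gamma delta T cells and type 3 innate lymphoid cells, and they bind a receptor built of the IL-17RA and IL-17RC chains. Interleukin 17C is instead made by epithelium and binds IL-17RA paired with IL-17RE. Interleukin 22, from much the same lymphocytes, acts on epithelium through IL-22RA1 and IL-10RB and is neutralised by the soluble protein IL-22RA2, while interleukin 23, whose own subunit is the product of Il23a, is made by myeloid cells and drives these lymphocytes.

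The lymphocyte cytokine genes Il17a and Il17f rose in Elf4fl/fl-Villin-Cre colon, and the receptor chain genes Il17rc, Il17re and Il22ra1 fell there, each by more than 2-fold. The shared receptor chain gene Il17ra, the gene of the soluble antagonist Il22ra2 and the cytokine genes Il22, Il23a and Il17c did not pass the test. Of the 10 genes, 2 were called higher and 3 lower (limma, threshold 0.05 on the p adjusted by Benjamini and Hochberg over 22050 genes), where 15.5% of all genes were called, 6.86% higher and 8.60% lower. The same 5 genes were called by edgeR on the recovered reads, with 23.4% of all genes called, 9.88% higher and 13.5% lower. Groups did not overlap for 9 of the 10 genes, 6 higher and 3 lower in Elf4fl/fl-Villin-Cre colon, beside 62.2% of all genes (35.0% higher and 27.2% lower), so a lack of overlap says little here.

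**Figure D1:**
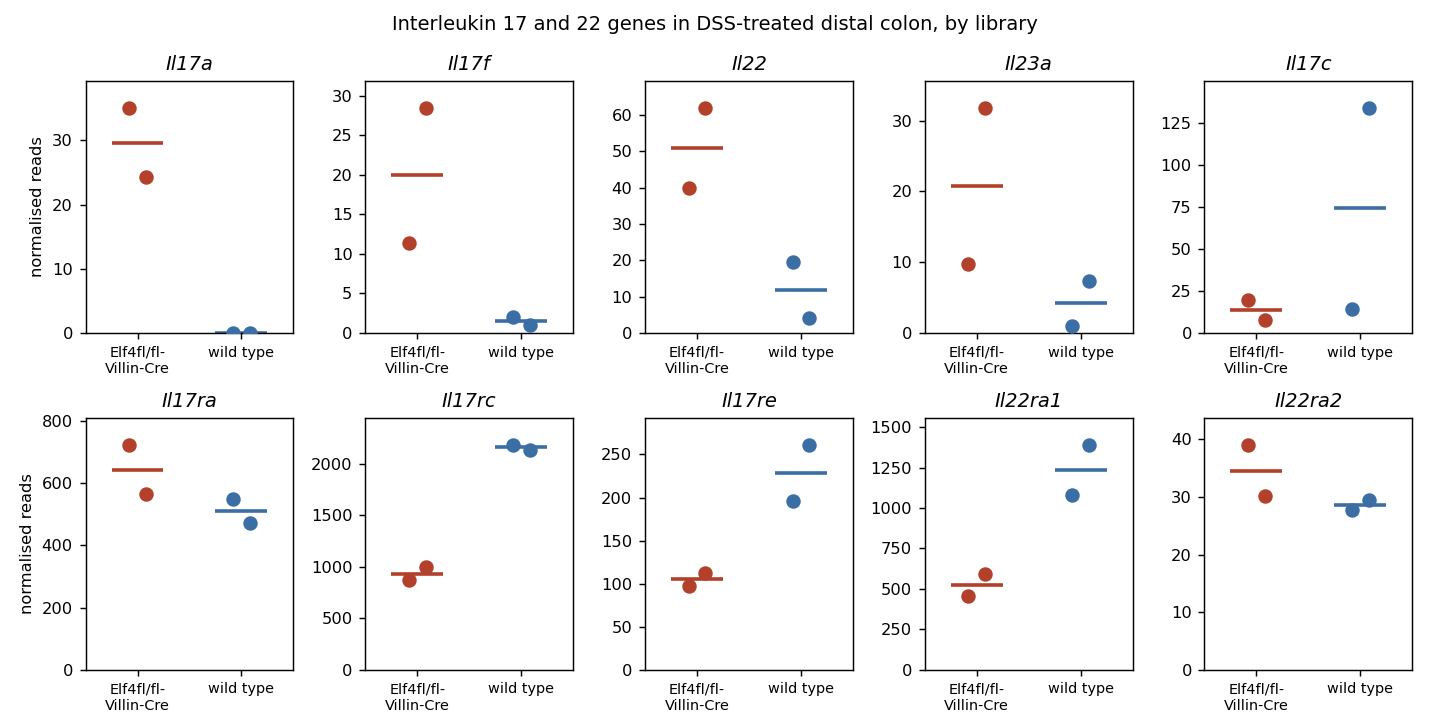
Normalised reads (vertical axes, each from 0, different scales) of the 10 genes in the 2 Elf4fl/fl-Villin-Cre libraries (left in each panel) and the 2 wild-type libraries (right). Points are libraries and lines are group means. Il17a was at 0 in both wild-type libraries, and Il17c was the gene whose groups overlapped, with 1 wild-type library at 134.

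Elf4 itself, an ETS-family transcription factor gene on chromosome X (ENSMUSG00000031103.12, mm10 chrX:48411046-48463132), had 897 and 758 normalised reads in Elf4fl/fl-Villin-Cre colon against 1588 and 1938 in wild type. It fell by 1.09 ± 0.16 on the log2 scale (SE; limma adjusted p = 0.0139). The 12 epithelial marker genes described below had a median log2 fold change of -1.42 in the same libraries. How much of the fall in Elf4 goes with less epithelial RNA was not tested. Library totals were 16023926 and 16425954 reads in Elf4fl/fl-Villin-Cre colon and 16134509 and 15885028 in wild type. The deposited values are reads times a factor per library, so that 1 read counts as 0.814 and 0.836 for Elf4fl/fl-Villin-Cre colon and as 1.03 and 1.05 in wild type. Scaled to equal totals instead, the median of all genes moved by 0.30 on the log2 scale and 77.5% of the called genes were higher, against 44.4% with the deposited scaling, and the direction of each of the 10 genes stayed as it was.

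ETS factors such as Elf4 bind DNA around the core GGAA, so the 250 bases before the start were read for the called genes, the cytokines Il17a and Il17f and the receptor chains Il17rc and Il22ra1 being printed here. The sequences are from RefSeq (GRCm38.p6) and run 5' to 3' on the gene's strand, with every GGAA, or TTCC where it lies on the other strand, in capitals. The windows are chr1:20730655-20730904 (plus strand) for Il17a, chr1:20784271-20784520 (minus strand) for Il17f, chr6:113471205-113471454 (plus strand) for Il17rc and chr4:135727909-135728158 (plus strand) for Il22ra1. Starts are those of the RefSeq table, so the Il17f window lies inside the GENCODE span of the gene given below, which includes transcripts that begin farther upstream, and the Il17rc window overlaps the first bases of its span.
Il17a: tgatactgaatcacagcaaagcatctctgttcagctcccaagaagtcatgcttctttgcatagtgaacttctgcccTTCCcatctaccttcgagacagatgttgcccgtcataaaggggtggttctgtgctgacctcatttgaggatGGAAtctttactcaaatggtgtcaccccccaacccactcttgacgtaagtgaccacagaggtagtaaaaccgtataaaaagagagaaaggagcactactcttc
Il17f: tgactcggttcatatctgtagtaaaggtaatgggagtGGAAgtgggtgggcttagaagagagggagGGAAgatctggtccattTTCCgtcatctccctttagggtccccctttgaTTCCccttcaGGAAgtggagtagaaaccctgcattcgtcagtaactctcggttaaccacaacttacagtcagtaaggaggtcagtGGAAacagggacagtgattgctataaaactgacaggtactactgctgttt
Il17rc: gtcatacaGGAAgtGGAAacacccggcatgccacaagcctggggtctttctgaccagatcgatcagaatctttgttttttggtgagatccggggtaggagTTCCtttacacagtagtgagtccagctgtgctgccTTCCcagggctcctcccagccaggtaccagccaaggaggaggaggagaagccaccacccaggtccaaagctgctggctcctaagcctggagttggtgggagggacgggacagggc
Il22ra1: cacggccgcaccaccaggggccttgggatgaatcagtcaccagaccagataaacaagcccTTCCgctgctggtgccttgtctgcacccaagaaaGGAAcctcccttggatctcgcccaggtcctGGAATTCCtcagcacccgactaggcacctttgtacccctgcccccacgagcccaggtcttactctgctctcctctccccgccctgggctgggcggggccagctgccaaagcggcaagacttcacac
The core occurred 2 times in the Il17a window, 6 times in Il17f, 4 times in Il17rc and 4 times in Il22ra1. Such a short core is common: 93.4% of 32817 windows of the same length held at least 1, with a median of 3. The longer site CCGGAAGT, which contains the core, was in none of the 7 member windows (Il17a, Il17f, Il17c, Il17rc, Il17re, Il22 and Il22ra1) and in 2.88% of all windows. Both were searched on both strands, and a match is a description of the letters only.

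Il17a (ENSMUSG00000025929.4, chr1:20730905-20734496) encodes the founding cytokine of the family. It had 35.0 and 24.2 normalised reads in Elf4fl/fl-Villin-Cre colon, from 43 and 29 reads, against 0 and 0 in wild type. Both Elf4fl/fl-Villin-Cre libraries thus held the transcript, and neither wild-type library had a read of it. Against a floor of 3 reads over the wild-type group, the level was 19.0-fold higher, and the difference was called by limma (adjusted p = 0.00965) and by edgeR (adjusted p = 0.00922). It was called by edgeR in each of 4 fits that left out 1 library (highest adjusted p = 0.0414). The floor allows for counting error in the wild-type reads only, so the 19.0-fold value is not a bound like the intervals of other genes. Those intervals cover counting error only.

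Il17f (ENSMUSG00000041872.9, chr1:20777146-20790617, minus strand), the neighbour of Il17a, encodes the cytokine that can also pair with IL-17A. Its normalised reads were 11.4 and 28.4 in Elf4fl/fl-Villin-Cre colon, from 14 and 34 reads, against 2.06 and 1.05 in wild type, from 2 and 1 reads. The lower Elf4fl/fl-Villin-Cre library lay well above both wild-type libraries, which were near the detection limit. The summed reads, scaled, gave a 12.7-fold ratio (95% counting interval 4.09 to 63.6), and the gene rose by 2.93 ± 0.65 on the log2 scale (SE; limma adjusted p = 0.0333). The call did not hold throughout: edgeR (adjusted p = 0.0252) lost it when Elf4fl/fl-Villin-Cre replicate 2 (0.126), wild type replicate 1 (0.0882) or wild type replicate 2 (0.134) was left out, and limma lost it under quantile scaling (adjusted p = 0.0642). Per kilobase of exon, Il17a stood at 530% and 147% of Il17f in the 2 Elf4fl/fl-Villin-Cre libraries. That length joins the exons of all annotated transcripts, 2022 bases for Il17f. The longest transcripts are 1171 bases for Il17a and 1178 for Il17f. Not divided by length, Il17a stood at 307% and 85.3% of Il17f, so their order in replicate 2 depended on the length used.

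Il22 (ENSMUSG00000074695.3, chr10:118204942-118210047) encodes the cytokine that acts on epithelium to promote repair and antimicrobial defence. It had 39.9 and 61.9 normalised reads in Elf4fl/fl-Villin-Cre colon, from 49 and 74 reads, against 19.5 and 4.22 in wild type, from 19 and 4 reads. Groups did not overlap, and the Elf4fl/fl-Villin-Cre libraries lay within a smaller factor of each other than the wild-type libraries. The log2 fold change was 2.29 ± 0.69 (SE), which missed the threshold in limma (adjusted p = 0.0769) and in edgeR (adjusted p = 0.0584). In limma it was 1.30 without wild type replicate 2 and 3.28 when wild type replicate 1 was left out instead. It passed with equal totals in limma (adjusted p = 0.0421), with DESeq2 (adjusted p = 0.0340), and in edgeR once replicate 1 of Elf4fl/fl-Villin-Cre (adjusted p = 0.0466) or of wild type (adjusted p = 0.0293) was left out. The near copy Iltifb is 97.4% identical over 1110 aligned transcript bases and was not analysed here, so reads from the 2 genes may have been split or dropped.

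Il23a (ENSMUSG00000025383.2, chr10:128296139-128298752, minus strand), the myeloid-made subunit that turns the shared p40 chain into interleukin 23, had 9.77 and 31.8 normalised reads in Elf4fl/fl-Villin-Cre colon against 1.03 and 7.38 in wild type. The groups did not overlap, by a small margin, and the libraries of each genotype lay far apart. The log2 fold change of 2.19 ± 0.89 (SE) missed the threshold in limma (adjusted p = 0.152) and edgeR (adjusted p = 0.12). With 1 library left out, the limma value was 1.39 for Elf4fl/fl-Villin-Cre replicate 2, 1.17 for wild type replicate 1 and 3.21 for wild type replicate 2. Il12b, which encodes p40, had 27.7 and 19.2 normalised reads in Elf4fl/fl-Villin-Cre colon against 14.4 and 20.0 in wild type, and those groups overlapped.

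Il17c (ENSMUSG00000046108.3, chr8:122422020-122423639), the epithelial cytokine, had 19.5 and 7.53 normalised reads in Elf4fl/fl-Villin-Cre colon against 14.4 and 134 in wild type. Only wild type replicate 2 stood high, and the other 3 libraries lay between 7.53 and 19.5. The log2 fold change of -1.78 ± 1.03 (SE; limma adjusted p = 0.289) therefore rested on 1 library: without wild type replicate 2 it was -0.22, and with that library but not the other it was -3.35, where edgeR called the gene (adjusted p = 0.0244). DESeq2 called it with all 4 libraries (adjusted p = 0.0318). Il17c lies within the span of the gene model Gm20388, with no shared exon.

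Il17rc (ENSMUSG00000030281.16, chr6:113471427-113483140), the chain that pairs with IL-17RA to bind IL-17A and IL-17F, had 871 and 998 normalised reads in Elf4fl/fl-Villin-Cre colon against 2185 and 2139 in wild type. The replicates lay close together and the groups far apart. The mean was 2.31-fold lower, and Il17rc fell by 1.21 ± 0.13 on the log2 scale (SE; limma adjusted p = 0.00942).

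Its neighbour Il17re (ENSMUSG00000043088.16, chr6:113458484-113470758), the chain specific for IL-17C, had 97.7 and 113 normalised reads in Elf4fl/fl-Villin-Cre colon against 196 and 261 in wild type. Both Elf4fl/fl-Villin-Cre values were below both wild-type values, and the mean was 2.17-fold lower. The gene fell by 1.10 ± 0.22 on the log2 scale (SE; limma adjusted p = 0.0256), and the edgeR call was lost without wild type replicate 2 (adjusted p = 0.0889).

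Il22ra1 (ENSMUSG00000037157.8, chr4:135728172-135752140), the chain whose expression confines interleukin 22 responses to epithelial and other non-haematopoietic cells, had 453 and 591 normalised reads in Elf4fl/fl-Villin-Cre colon against 1081 and 1391 in wild type. The groups were well apart, and the mean was 2.37-fold lower. Il22ra1 fell by 1.24 ± 0.20 on the log2 scale (SE; limma adjusted p = 0.0153). Together with Il17a and Il17rc it was called by edgeR in each of the 4 fits that left out a library.

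Il17ra (ENSMUSG00000002897.5, chr6:120463247-120487559), the chain common to the family's receptors and made by leukocytes as well as epithelium, had 724 and 564 normalised reads in Elf4fl/fl-Villin-Cre colon against 549 and 473 in wild type. The groups were separated by a narrow gap, and the log2 fold change of 0.33 ± 0.18 (SE) was not called (limma adjusted p = 0.257). Il22ra2 (ENSMUSG00000039760.8, chr10:19621998-19634681), which encodes the soluble interleukin 22 antagonist, had 39.1 and 30.1 normalised reads in Elf4fl/fl-Villin-Cre colon against 27.8 and 29.5 in wild type. The difference was within the spread of the Elf4fl/fl-Villin-Cre libraries, with a log2 fold change of 0.25 ± 0.33 (SE; limma adjusted p = 0.642) whose sign turned under quantile scaling (-0.020).

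**Figure D2:**
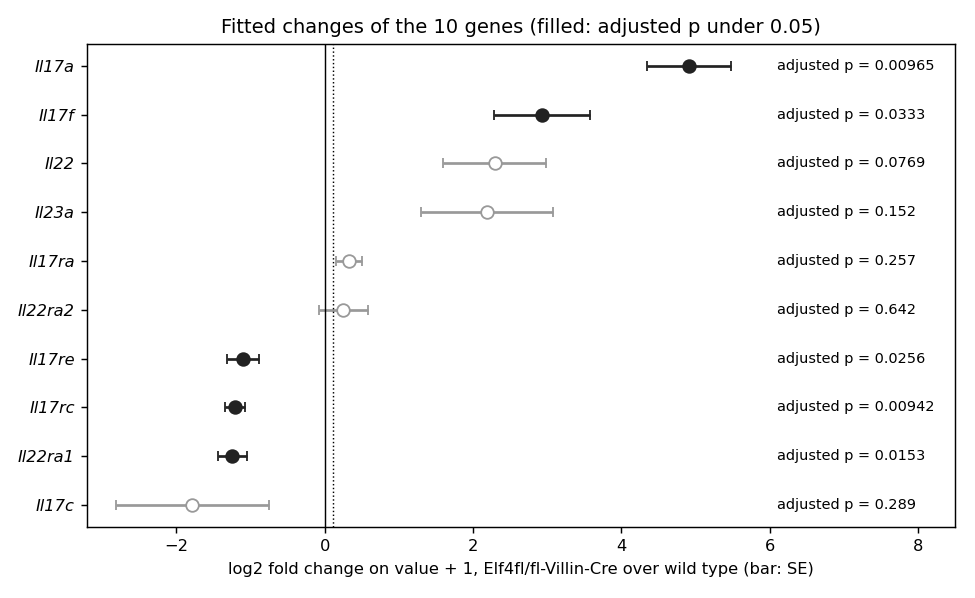
Fitted log2 fold change on value + 1 (horizontal axis) of each of the 10 genes, Elf4fl/fl-Villin-Cre over wild type, with SE bars, filled where the limma adjusted p was under 0.05. The dotted line is the median of all genes (0.11). Il17a and Il17f are filled on the right, and Il17re, Il17rc and Il22ra1 are filled on the left.

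Per kilobase of exon, levels of different genes can be set side by side only roughly. The length joins the exons of all annotated transcripts, and the order depends on it. In Elf4fl/fl-Villin-Cre colon the order was led by Il17rc at 350 ± 33.8 and Il22ra1 at 203 ± 38.1 normalised reads per kilobase, followed by Il17ra at 74.4 ± 13.0 and Il22 at 45.9 ± 14.0 (SD, n = 2 each). Il17a at 25.3 ± 6.51 came next, and Il17c, Il17re, Il22ra2, Il17f and Il23a lay between 18.8 and 9.24, where neighbours in the order overlapped between libraries except that Il17re lay above Il22ra2 in both. In wild type Il17rc at 810 ± 12.3 and Il22ra1 at 481 ± 85.2 led as well, then Il17c at 103 ± 117, Il17ra at 59.0 ± 6.23, Il17re at 39.0 ± 7.81, Il22ra2 at 11.5 ± 0.49, Il22 at 10.7 ± 9.77, Il23a at 1.87 ± 2.00, Il17f at 0.77 ± 0.35 and Il17a at 0 (SD, n = 2 each). By this measure Il17a and Il22 stood above Il17re in Elf4fl/fl-Villin-Cre colon and below it in wild type. Not divided by length, Il17re had more normalised reads than Il17a or Il22 in every library. In wild type Il17c and Il17ra, Il22ra2 and Il22, and Il23a and Il17f overlapped as neighbours.

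The chains of each receptor moved unequally. Il17rc stood at 390% and 574% of Il17ra per kilobase in Elf4fl/fl-Villin-Cre colon against 1290% and 1466% in wild type, a log2 difference of -1.54. Il17re stood at 19.9% and 29.5% of Il17ra per kilobase against 52.8% and 81.5% in wild type, a log2 difference of -1.44. The groups did not overlap in either ratio. Il22ra1 relative to its partner Il10rb differed by -0.81 on the log2 scale, also without overlap. Il22 stood at 230% and 463% of its antagonist Il22ra2 per kilobase in Elf4fl/fl-Villin-Cre colon against 158% and 32.2% in wild type, a log2 difference of 2.19. The percentages per kilobase depend on the exon lengths used, and the log2 differences do not. These ratios are a description, with no test.

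Epithelial marker RNA was lower in the same libraries as the receptor chains. All 12 epithelial markers fell, with a median log2 fold change of -1.42 (range -2.15 to -1.04), among them Vil1, which encodes villin, by 1.58 and Krt19, a keratin gene, by 2.15, and their summed level was 102574 and 128834 normalised reads in Elf4fl/fl-Villin-Cre colon against 311591 and 376468 in wild type. In bulk tissue, fewer cells of a type and less RNA per cell cannot be told apart. Set against that sum, the 3 lower receptor genes were not lower: Il17rc was 0.849% and 0.775% of it in Elf4fl/fl-Villin-Cre colon against 0.701% and 0.568% in wild type. Il22ra1 was 0.441% and 0.459% against 0.347% and 0.369%, and Il17re was 0.0953% and 0.0876% against 0.0631% and 0.0694%, the log2 differences being 0.36, 0.33 and 0.47. This depends on the markers used. The keratin genes Krt20 and Krt18, named after their values were seen, fell by 1.04 and 1.14, less than Il17rc (1.21) and Il22ra1 (1.24), while every other marker fell by more than these receptor genes. Il17ra, which is not confined to epithelium, was 0.706% and 0.438% of the sum against 0.176% and 0.126%, a log2 difference of 1.90. Whether the RNA of the other receptor genes came from epithelium alone was not tested. How much of the fall in the receptor genes goes with the fall in epithelial RNA was not tested beyond these ratios.

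**Figure D3:**
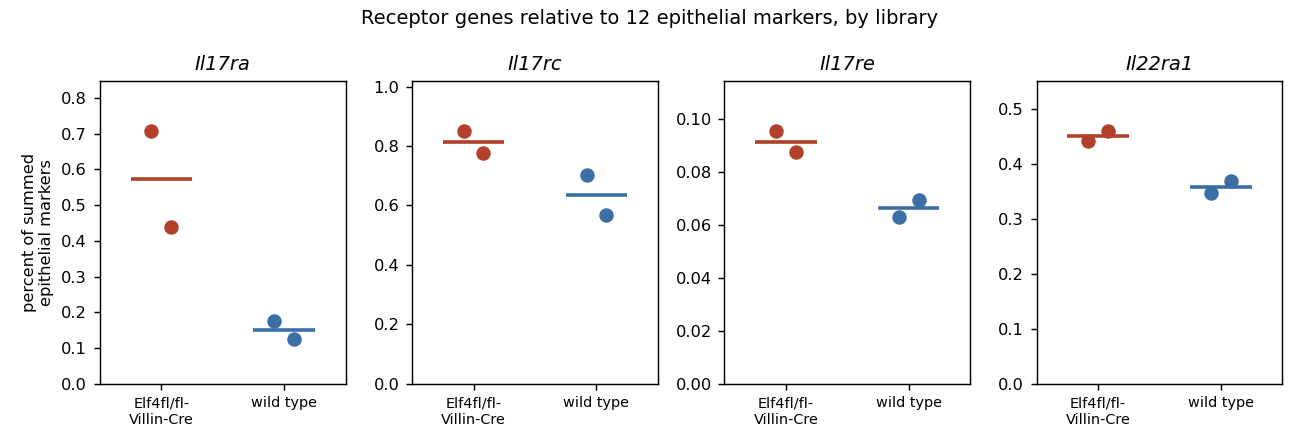
Level of 4 receptor genes as a percent of the summed level of 12 epithelial markers (vertical axes from 0), in Elf4fl/fl-Villin-Cre (left) and wild-type (right) libraries. Points are libraries and lines are means. Relative to this sum each receptor gene lay higher in both Elf4fl/fl-Villin-Cre libraries, by 0.33 to 1.90 on the log2 scale.

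The sources of the lymphocyte cytokines were read through marker genes. The summed level of 10 T cell markers was 1771 and 1350 normalised reads in Elf4fl/fl-Villin-Cre colon against 1529 and 960 in wild type, so those groups overlapped, and 1 of the 10 (Cd28, a costimulatory receptor gene) was called higher, a call that edgeR made in 1 of 4 fits without 1 library. Against the T cell sum, Il17a was 1.98% and 1.80% in Elf4fl/fl-Villin-Cre colon and 0 in wild type. Il22 was 2.25% and 4.58% of it against 1.28% and 0.439%. Of 13 markers of type 17 lymphocytes, limma called 6 higher and none lower, with a median of 1.11, while edgeR called 6 higher and 1 lower. Their sum was 6331 and 5553 normalised reads against 3282 and 3541. Against this type 17 sum, Il22 was 0.630% and 1.11% in Elf4fl/fl-Villin-Cre colon and 0.596% and 0.119% in wild type. Only a narrow gap separated those groups. Il17a was 0.553% and 0.437% of the type 17 sum in Elf4fl/fl-Villin-Cre colon and 0 in wild type. The 6 include Il1r1, the interleukin 1 receptor gene, which rose by 1.48, and Rora, a nuclear receptor gene, which rose by 1.26 (limma adjusted p = 0.00799 and 0.0101). Of the 13, 3 were called higher under quantile scaling, and 3 by edgeR when wild type replicate 2 was left out. Both named genes are also expressed by cells other than lymphocytes, and Il1r1 alone gave 2710 and 2285 of the summed reads against 923 and 856 in wild type. Il23r, the interleukin 23 receptor gene, had 7.33 and 4.18 normalised reads against 4.12 and 0.

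Mononuclear phagocytes are the usual source of Il23a. Of 12 of their markers, 7 were called higher and none lower, with a median log2 fold change of 0.97, and Cd14 rose by 1.37 and Itgam, an integrin chain gene, by 1.83 (limma adjusted p = 0.0089 and 0.0115). The 7 became 2 under quantile scaling, and edgeR called 3 when Elf4fl/fl-Villin-Cre replicate 1 was left out and 2 when wild type replicate 2 was. The other 5 of the 12 were not called. Their summed level was 26057 and 16016 normalised reads against 8996 and 7327 in wild type, counting all 12. Lyz2, a lysozyme gene, alone gave 18002 and 9419 of this sum against 5064 and 4094 in wild type, most of it in every library. Il23a as a percent of the summed phagocyte markers was 0.0375% and 0.198% in Elf4fl/fl-Villin-Cre colon against 0.0114% and 0.101% in wild type, so those groups overlapped. Of 8 B cell and follicle markers, which mark the lymphoid follicles of the colon wall, 1 was called higher (Cxcl13, the B cell chemokine gene, log2 fold change 2.78, limma adjusted p = 0.0113), and their median was 1.14. With 1 library left out, that count in edgeR was 4 for Elf4fl/fl-Villin-Cre replicate 2, 2 for wild type replicate 1 and 0 for wild type replicate 2. The summed level of the 8 was 6303 and 3054 normalised reads against 1903 and 989 in wild type. Cxcl13 alone gave 3589 and 1622 of these sums against 397 and 311 in wild type. Whether these differences in marker RNA reflect cell makeup, and their part in the cytokine results, was not tested.

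Among the other genes of the pathway, most signalling components did not pass the test. Of 22 genes of IL-17 receptor signalling, 4 were called higher and 1 lower, with a median log2 fold change of 0.12 beside 0.11 over all genes. With equal totals the counts were 8 higher and 0 lower and the median 0.43. The transcription factor genes Cebpb and Cebpd rose by 1.85 and 1.24 (limma adjusted p = 0.0108 and 0.0137), and Arid5a, an RNA-stabilising protein gene, by 1.15 (0.0432). When wild type replicate 2 was left out, edgeR called 1 of the 22 higher, and when Elf4fl/fl-Villin-Cre replicate 1 was, it called 2. Usp25, a deubiquitinase gene that dampens the pathway, fell by 0.62 (limma adjusted p = 0.0283), a call that was lost with equal totals and with quantile scaling, and in edgeR when Elf4fl/fl-Villin-Cre replicate 1 (adjusted p = 0.0941) or wild type replicate 2 (adjusted p = 0.0719) was left out. The fourth higher gene, Rela, a subunit of NF-kappaB, rose by 0.54 (limma adjusted p = 0.0458) and is named after its value was seen. Of 8 genes of IL-22 receptor signalling, 1 was called, Socs3, the feedback inhibitor of STAT3 signalling, which had 4505 and 3327 normalised reads in Elf4fl/fl-Villin-Cre colon against 2509 and 2079 in wild type (log2 fold change 0.76, limma adjusted p = 0.0489) and was called by edgeR in 1 of 4 fits without 1 library, and not by limma with TMM or quantile scaling. None of 3 tested relatives of the family (Il17d, Il17rb, Il17rd; Il25 was under the filter and Il17b was not analysed here) was called, with log2 fold changes between 0.037 and 0.095, and none of 6 partner chains (median 0.84), of which Il10rb had 756 and 758 normalised reads against 958 and 1098 (log2 fold change -0.44, limma adjusted p = 0.08).

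Of 19 genes known to respond to interleukin 17, 11 were called higher and 1 lower, with a median log2 fold change of 2.64, and among them the neutrophil chemokine gene Cxcl5 rose by 1.63, the collagenase gene Mmp13 by 5.23, the monocyte chemokine gene Ccl2 by 3.28 and the granulocyte growth factor gene Csf3 by 5.05 (limma adjusted p = 0.00737, 0.00737, 0.00742 and 0.00942). The 1 lower was Pigr, the epithelial transporter of immunoglobulin A, which had 7614 and 12875 normalised reads against 35171 and 40859 and is named after its value was seen. Of 14 genes known to respond to interleukin 22, 1 was called higher (Socs3 again) and 4 lower, with a median of -0.46 (-0.15 with equal totals). These 4 are epithelial products: the scavenger protein gene Dmbt1 fell by 2.19 (limma adjusted p = 0.0107), the interleukin gene Il18 by 2.73, the fucosyltransferase gene Fut2 by 1.26 and the mucin gene Muc13 by 1.36, and edgeR lost each of the last 3 when some single library was left out, with 2 lower calls in all when wild type replicate 1 was. The antimicrobial lectin genes Reg3b and Reg3g, named after their values were seen, had 488 and 12.5, and 321 and 50.2 normalised reads in Elf4fl/fl-Villin-Cre colon against 21.6 and 8.43, and 46.3 and 15.8 in wild type, so Elf4fl/fl-Villin-Cre replicate 1 stood apart in both, and edgeR called 4 of the 14 higher when replicate 2 of that genotype was left out. Many of these genes respond to other signals too, and 8 of 9 neutrophil markers were higher in the same libraries (median 3.14), with the exception of Ly6g, which had 9105 and 10787 against 12663 and 13520 and was not called. Without Ly6g the markers summed to 3911 and 3753 normalised reads in Elf4fl/fl-Villin-Cre colon against 599 and 406 in wild type, and edgeR called 4 of them higher when wild type replicate 2 was left out. The part of neutrophil RNA in the target gene results was not tested.

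**Figure D4:**
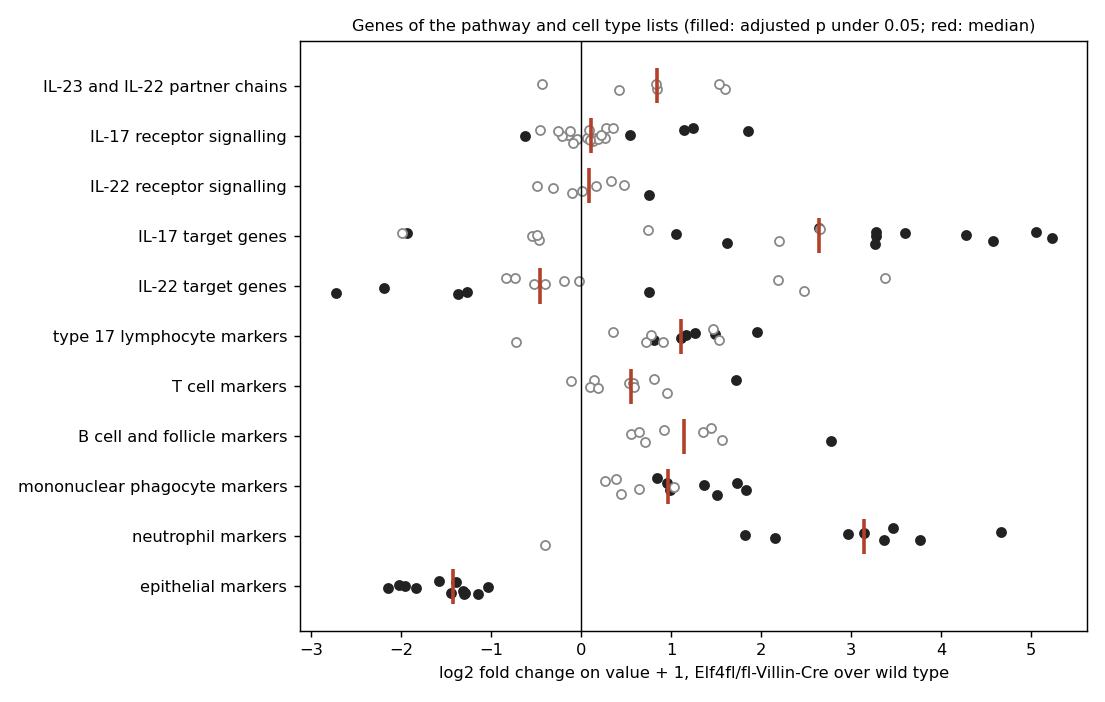
Log2 fold change on value + 1 (horizontal axis) of the genes in 11 lists of pathway and cell type genes, Elf4fl/fl-Villin-Cre over wild type. Each point is a gene, filled where the limma adjusted p was under 0.05, and the red bars are list medians. The IL-17 target and neutrophil lists lie to the right (medians 2.64 and 3.14) and the epithelial markers to the left (median -1.42).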

How the data were processed

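RNA was sequenced from 4 distal colon libraries, 2 Elf4fl/fl-Villin-Cre and 2 wild type, grouped by the genotype label, with replicate numbers from the titles. The authors deposited a normalised signal per gene and library, with mm10 as the build per the submitters' processing notes. What aligner, counter, strandedness and scaling were used is not given in the sources used here. Dividing by the value of 1 read gave whole reads for 100% of values (tolerance 0.01). Symbols came from a reference list of mouse gene names, with gaps filled from the mouse GENCODE release M21. Loci came from that release, which matched 22358 of 22422 identifiers (99.7%).

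The test was limma (3.58.1, R 4.3.3) on log2(value + 1), which understates changes of low genes, with genotype as the single term, a trended variance and Benjamini-Hochberg adjustment at 0.05 over 22050 genes with a mean value of at least 1. The fit had 2 residual and 4.06 prior degrees of freedom. edgeR (4.0.16, quasi-likelihood, TMM) and DESeq2 (1.42.0) on the recovered reads, other scalings, a replicate block and leaving out each library were alternatives. Intervals of read ratios are exact at 95%.

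Members and gene lists (12 lists beside the members) were chosen with earlier results of these data known. Named genes were drawn from the members, Elf4, Iltifb as the near copy of Il22, and in each list up to 4 called genes by smallest p, or 2 where none was called. Exceptions are stated in place, and 1 gene of the lists is not reported here by name.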

Additional observations from a re-analysis of the deposited data

How the results depend on the processing

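Of 200 values of the 10 genes under alternatives, 165 kept their direction and side of the threshold, 25 lost the call, 9 gained one and 1 turned sign: Il22ra2 under quantile scaling (-0.020). The 200 include the limma fits without 1 library, which called no gene. In those fits a called member could only lose its call and the others could not gain one, so the tally does not measure stability there. All genes called numbered 3409, but 5247 with equal totals, 1936 with quantile scaling and 5433 with edgeR and a replicate block. The limma replicate block called 4511 genes and 6 of the 10 members, Il23a (adjusted p = 0.036) being the added one, and the edgeR replicate block called 7, with Il22 (adjusted p = 0.0262) and Il23a (adjusted p = 0.0224) added. Labels do not say what the replicate numbers share, and same-numbered deviations correlated at 0.104 over 22050 genes with only 2 pairs, so they were not taken as pairs. Leaving out 1 library, limma had 1 residual degree of freedom and called 0 genes each time (3729 to 6189 at an unadjusted p under 0.05), while edgeR called 1285 to 3754, among them 2142 without Elf4fl/fl-Villin-Cre replicate 1. Over both tools the range was 0 to 3754 genes, 0 to 6 members and 0 to 68 genes of the lists. The lowest edgeR counts, 1285 genes, 3 members (Il17a, Il17rc, Il22ra1) and 34 genes of the lists, came without wild type replicate 2. The cause of these changes was not tested, beyond the smaller number of samples. Of the 10 genes, Il17f and Il23a had the fewest reads, and the Il17c value rests on 1 library.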

Other observations

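Wild type replicate 2, the library in which Il17c stood at 134 normalised reads against 14.4 in wild type replicate 1, was higher than wild type replicate 1 for some inflammatory genes and lower for others, and the examples here were chosen after their values were seen. Tnfaip3, which encodes the NF-kappaB inhibitor A20, had 2851 and 2431 normalised reads in Elf4fl/fl-Villin-Cre colon, against 2539 and 5124 in wild type replicates 1 and 2. Ccl20, the chemokine gene for CCR6-bearing lymphocytes, had 224 and 152 in Elf4fl/fl-Villin-Cre colon, against 154 and 419 in wild type. Cxcl2, a neutrophil chemokine gene, had 1332 and 1545 in Elf4fl/fl-Villin-Cre colon, against 79.2 and 648 in wild type. The other way round, Lcn2, the antimicrobial lipocalin gene, had 4013 and 2186 in Elf4fl/fl-Villin-Cre colon, against 254 and 90.6 in wild type. S100a9, a calprotectin subunit gene, had 2383 and 2605 in Elf4fl/fl-Villin-Cre colon, against 394 and 170 in wild type. Il6, the interleukin 6 gene, had 489 and 370 in Elf4fl/fl-Villin-Cre colon, against 42.2 and 6.32 in wild type.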
